A study of Mus musculus with 12 samples.

Results

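The genes described here are 9 regulators of the interferon and cytokine response: the interferon regulatory factors Irf1, Irf2, Irf3, Irf5, Irf7, Irf8 and Irf9, and the signal transducers Stat2 and Stat3. They were taken by gene symbol from a count table of 32698 symbols. All 9 were found, and all 9 were among the 13196 genes that passed the low-count filter and were tested. The RNA came from mouse naive CD4+ T cells that were stimulated in vitro by anti-CD3 and anti-CD28, antibodies that stand in for antigen and costimulation. The cells either lacked Keap1 (label Keap-1 KO, here KKO) or were wild type (WT), and they were harvested at 48 h or at 24 h, which gave 4 groups: KKO at 48 h, WT at 48 h, KKO at 24 h and WT at 24 h. Each group had 3 libraries, and the labels do not say whether these came from separate mice or cultures, so that the p-values measure the spread between libraries only. The labels give no strain or age, and they do not say how Keap1 was deleted or in which cells.

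Interferon regulatory factors share a DNA-binding domain that reads GAAA repeats. IRF3, IRF5 and IRF7 act downstream of nucleic acid sensors and toll-like receptors and switch on interferon genes. IRF9 and STAT2 form, with a partner STAT, the complex ISGF3, which carries the signal of the type I interferon receptor to elements called ISRE, and Irf7 itself is a classical ISGF3 target. IRF1 drives many interferon-gamma genes, including those of antigen presentation, and IRF2 competes with it for the same sites. IRF8 is best known from dendritic cells and B cells, and STAT3 carries signals of IL-6, IL-10, IL-21 and related cytokines, which shape helper T cell subsets. KEAP1 holds the transcription factor NRF2 at low levels by directing its degradation, and NRF2 binds antioxidant response elements (ARE).

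Promoter sequences are shown for 4 genes that differ in how they behaved at 48 h: Irf7 and Irf1, the members with the greatest fall in KKO, Stat2, which fell less, and Irf2, which did not pass the test. Each run is the 250 bases before the RefSeq start site (build GRCm38.p6), written 5′ to 3′ along the gene. Capitals mark matches, on either strand, to any of 3 motifs: the ISRE core GAAANNGAAA, the GAS element TTCNNNGAA that STAT dimers bind, and the ARE core TGACNNNGC.

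Irf7 (chr7:141266425-141266674, minus strand): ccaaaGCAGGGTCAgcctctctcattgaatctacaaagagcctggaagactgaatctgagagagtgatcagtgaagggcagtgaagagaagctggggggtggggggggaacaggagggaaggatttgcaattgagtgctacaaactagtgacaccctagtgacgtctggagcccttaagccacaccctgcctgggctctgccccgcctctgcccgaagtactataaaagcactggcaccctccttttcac

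Irf1 (chr11:53769764-53770013, plus strand): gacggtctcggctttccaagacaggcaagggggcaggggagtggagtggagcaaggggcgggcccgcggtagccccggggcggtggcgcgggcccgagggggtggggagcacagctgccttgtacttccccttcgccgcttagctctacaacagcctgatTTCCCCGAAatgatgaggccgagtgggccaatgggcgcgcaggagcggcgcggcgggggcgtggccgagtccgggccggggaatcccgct

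Stat2 (chr10:128270248-128270497, plus strand): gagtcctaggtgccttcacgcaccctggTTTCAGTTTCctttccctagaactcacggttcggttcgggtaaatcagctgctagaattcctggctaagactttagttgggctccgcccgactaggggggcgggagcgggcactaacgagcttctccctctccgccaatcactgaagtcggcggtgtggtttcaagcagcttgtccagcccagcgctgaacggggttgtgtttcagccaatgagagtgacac

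Irf2 (chr8:46739495-46739744, plus strand): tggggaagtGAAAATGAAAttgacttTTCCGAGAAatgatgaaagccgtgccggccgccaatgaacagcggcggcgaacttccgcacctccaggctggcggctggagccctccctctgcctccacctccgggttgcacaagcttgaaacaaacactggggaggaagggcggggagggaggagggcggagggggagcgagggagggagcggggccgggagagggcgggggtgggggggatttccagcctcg

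RefSeq held 12 start-site windows for the 9 genes, each of 300 bases, from 250 before to 50 after the start. The Irf7 window held 1 match, to the ARE core (GCAGGGTCA at base -245), and no ISRE core. The Irf1 window held a GAS match (TTCCCCGAA at base -90). The Stat2 window held an ISRE core (TTTCAGTTTC at base -222), and the Irf2 window held both an ISRE core (GAAAATGAAA at base -241) and a GAS match (TTCCGAGAA at base -224). Among the other windows, those of Irf8 held 2 GAS matches (bases -171 and -153) and, at its other start site, 1 ARE core (base -25). The windows of Irf3, Irf5, Irf9 and Stat3 held none of the 3 motifs. In all, 2 of the 12 windows held an ISRE core, against 3.44% of 32851 windows of all genes, 3 held a GAS match, against 8.3%, and 2 held an ARE core, against 12.4%. These are matches of letters only, and whether the motifs go with the genes' changes was not tested. At 48 h Stat2 (ISRE letters) and Irf1 (GAS letters) fell, and so did Irf9, which held neither. Irf2 held both and was not called, although all its KKO libraries lay below all its WT libraries.

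Libraries held 17.8 to 32.6 M (mega) counts. Keap1 stood at 21.2 ± 1.21 CPM (counts per M of the scaled library total; SD, n = 3) in KKO and 126 ± 5.16 CPM in WT at 48 h, and at 16.6 ± 0.907 CPM in KKO and 107 ± 1.48 CPM in WT at 24 h, so every library matched its label. The T cell markers of a fixed list summed to 1691 to 2353 CPM in every library. Both CD8 T cell markers were called higher in KKO at 48 h, Cd8a at a log2 fold change of 0.79 (adjusted p = 0.0473) and Cd8b1 at 0.47 (adjusted p = 0.0161), and they summed to 12.7 to 13.4 CPM in KKO and 8.32 to 10.6 CPM in WT. Neutrophil markers summed to 0.736 to 3.49 CPM in KKO and 0 to 0.332 CPM in WT at 48 h. The KKO sum was Ly6g alone, as S100a8, S100a9 and Retnlg had 0 counts in KKO at that time. In WT S100a8 had 1 count, and S100a9 and Retnlg had 0. Ly6g was called higher in KKO at 48 h (adjusted p = 0.00333), on 140 counts over the KKO libraries and 7 over the WT libraries. NK cell markers summed to at most 2.51 CPM. The part of these cells in the results was not tested. Signs of both sexes were mixed in 2 libraries: KKO replicate 3 of the 48 h group had Xist at 105 CPM beside Y-linked transcripts at 149.5 CPM in sum, and KKO replicate 1 of the 24 h group had 76.2 and 125 CPM. No other library showed both at such levels. Results are therefore also given without these 2 mixed libraries wherever a call was lost. KKO replicate 2 at 48 h had Xist and few Y-linked transcripts, and it held the highest Irf1 and the lowest Stat3 of the KKO libraries at 48 h.

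At 48 h, 6 of the 9 genes were lower in KKO than in WT (Irf7, Irf1, Stat2, Irf9, Irf5 and Irf8), 1 was higher (Stat3), and Irf2 and Irf3 did not pass the test. Calls rest on edgeR's quasi-likelihood test, with the Benjamini-Hochberg adjusted p (taken over every tested gene) under 0.05. At that threshold 24.3% of all tested genes were called at 48 h: 11.9% were lower and 12.4% higher in KKO. At 24 h only Irf5 was called, and it was higher in KKO, where 2.33% of all tested genes were called, 1.89% higher and 0.432% lower. The median log2 fold change of the 9 genes was -0.31 at 48 h and 0.09 at 24 h, against 0 over all genes at both times. The members were chosen with earlier results of these data known, so their count is a description of these genes. Overlap between the 3 libraries of each genotype is likewise given as a description. The share of all tested genes without overlap is not given. In RNA from mixed cells, fewer cells of a type and less RNA per cell cannot be told apart.

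**Figure D1:**
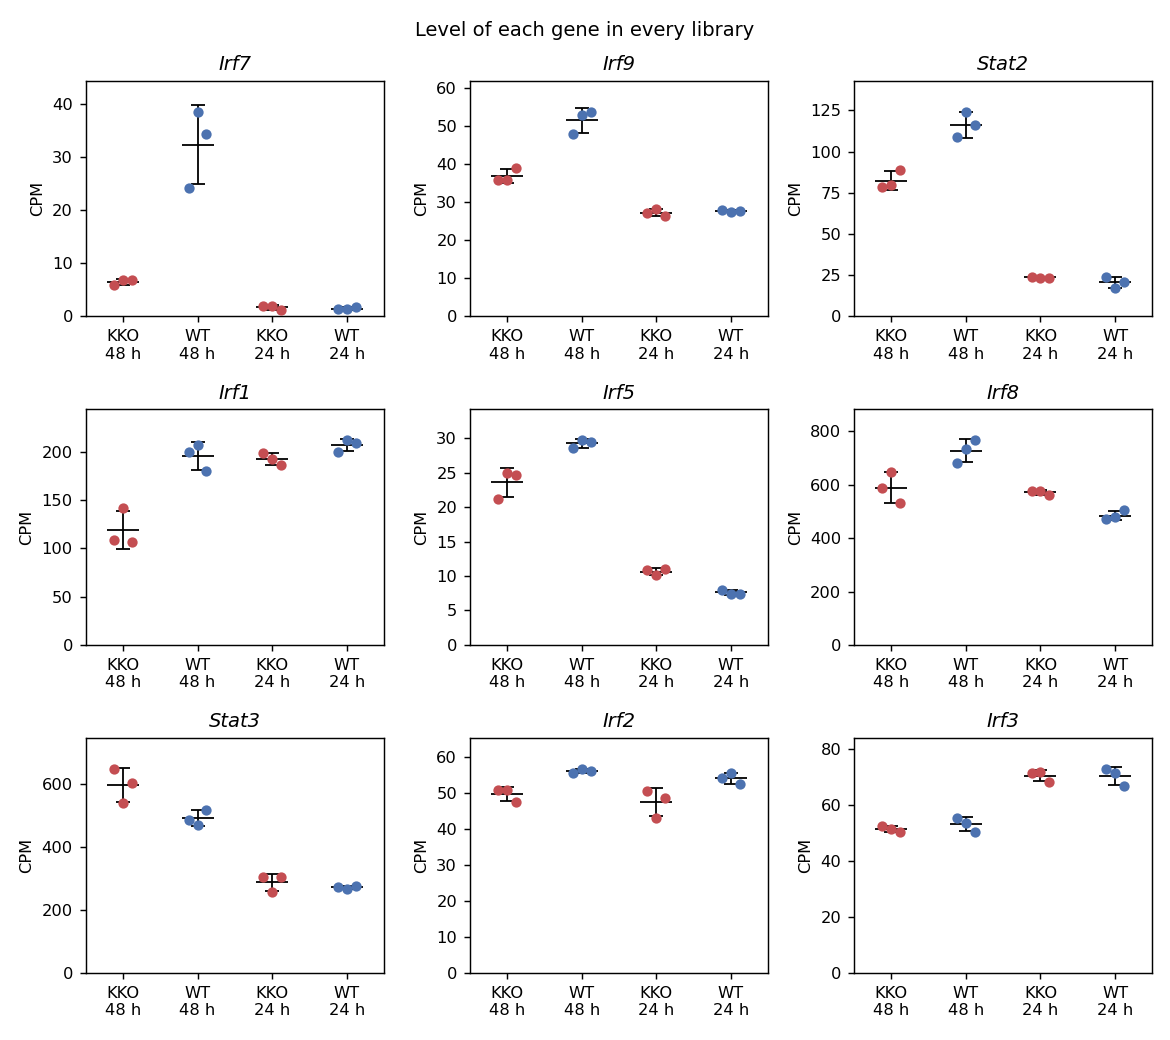
CPM of each of the 9 genes (vertical axis, linear, starting at 0) in KKO and WT libraries at 48 h and 24 h; points are single libraries, and black bars are the mean and SD of 3. Irf7 stood at 24.1 to 38.5 CPM in WT at 48 h and below 7 CPM in the other libraries, while Stat3 alone was higher in KKO than in WT at 48 h.

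Irf7 (chr7:141262706-141266481 on the minus strand, mm10), the factor that amplifies type I interferon production, showed the largest fall of the 9. At 48 h it had 5.85, 6.79 and 6.82 CPM in the KKO libraries, against 24.1, 38.5 and 34.2 CPM in the WT libraries. At 24 h it had 1.93, 2.01 and 1.23 CPM in KKO, against 1.36, 1.39 and 1.75 CPM in WT. The groups were far apart at 48 h, with every KKO library below every WT library, and overlapped at 24 h, when the gene was barely detected in either genotype (29 to 54 expected counts per library). The log2 fold change at 48 h was -2.32 (SE 0.17; adjusted p = 2.72e-06), which is 4.98-fold lower in KKO. At 24 h it was 0.22, with a 95% interval of -0.34 to 0.77 (adjusted p = 0.899). Irf7 kept its call at 48 h in all 12 fits that left out a library, at -2.49 to -2.17. Plasmacytoid dendritic cells are known for high Irf7. Of their 4 listed markers, Siglech and Klk1 had 0 counts in both genotypes at 48 h, and the list summed to 13.8 to 17.3 CPM in KKO and 17.0 to 24.5 CPM in WT, nearly all of it Pacsin1 (14.9 and 20.4 CPM). Pacsin1 was called lower in KKO at 48 h (log2 fold change -0.45, adjusted p = 0.0169), although its libraries overlapped. At 24 h, when Irf7 was not called, Pacsin1 was also called lower in KKO, without overlap (-0.59, adjusted p = 0.0109). Its means there were 29.9 CPM in KKO and 45.0 CPM in WT. In WT Pacsin1 fell from 24 h to 48 h (-1.14), while Irf7 rose. The remaining listed marker, Cox6a2, went the other way and rose in WT, from 0.0119 to 0.490 CPM (4.92, adjusted p = 0.000168). Between genotypes Cox6a2 was not called at 48 h (0.40, adjusted p = 0.574) or at 24 h (2.10, adjusted p = 0.61). The part of cells that express these markers in the result was not tested.

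Stat2 (chr10:128270559-128292849, plus strand), a component of ISGF3, had 78.4, 79.5 and 89.0 CPM in KKO at 48 h, against 108.6, 124.1 and 115.8 CPM in WT. Its 24 h levels were 24.2, 23.4 and 23.3 CPM in KKO, against 24.0, 17.3 and 20.9 CPM in WT. At 48 h no KKO library reached the lowest WT library, and at 24 h the genotypes overlapped. Stat2 was 1.41-fold lower in KKO at 48 h (log2 fold change -0.50, SE 0.09; adjusted p = 0.00173).

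Irf9 (chr14:55603571-55610030, plus strand), the DNA-binding subunit of ISGF3, had 35.9, 35.8 and 39.1 CPM in KKO at 48 h, against 47.8, 53.0 and 53.8 CPM in WT. The 24 h libraries gave 27.2, 28.2 and 26.4 CPM in KKO, against 27.9, 27.3 and 27.6 CPM in WT. The groups did not overlap at 48 h and lay within 2 CPM of each other at 24 h. Irf9 was 1.4-fold lower in KKO at 48 h (log2 fold change -0.48, SE 0.06; adjusted p = 0.000186), and its log2 fold change at 24 h was -0.02 (adjusted p = 0.989). Stat2 and Irf9 kept their calls at 48 h in all 12 fits that left out a library.

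Irf1 (chr11:53770014-53778374, plus strand) had 109.2, 142.2 and 106.9 CPM in KKO at 48 h, against 200.1, 207.6 and 179.9 CPM in WT. At 24 h it had 199.2, 192.3 and 187.0 CPM in KKO, against 199.9, 212.2 and 209.1 CPM in WT. The 24 h libraries of both genotypes and the 48 h libraries of WT thus lay between 179.9 and 212.2 CPM, and the KKO libraries at 48 h lay well below them. Irf1 was 1.64-fold lower in KKO at 48 h (log2 fold change -0.71, SE 0.09; adjusted p = 0.000163). At 24 h all KKO libraries were also below all WT libraries, but by a log2 fold change of -0.10, which was not called (adjusted p = 0.837).

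Irf2 (chr8:46739732-46847458, plus strand), the competitor of IRF1, had 50.7, 50.8 and 47.6 CPM in KKO at 48 h, against 55.4, 56.7 and 56.0 CPM in WT. Its 24 h levels were 50.6, 43.0 and 48.7 CPM in KKO, against 54.2, 55.5 and 52.4 CPM in WT. All KKO libraries lay below all WT libraries at both times, with log2 fold changes of -0.17 at 48 h (95% interval -0.31 to -0.03; adjusted p = 0.0526) and -0.19 at 24 h (95% interval -0.33 to -0.05; adjusted p = 0.156). Neither passed the threshold; at 48 h Irf2 passed it with the stricter low-count filter (adjusted p = 0.0408) and in 3 of the 12 fits that left out 1 library (adjusted p = 0.0172 to 0.195 over the 12).

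Irf3 (chr7:44997648-45002848, plus strand), which is present before stimulation and is activated by phosphorylation, had 52.7, 51.7 and 50.5 CPM in KKO at 48 h, against 55.6, 53.7 and 50.5 CPM in WT. The 24 h libraries gave 71.5, 71.95 and 68.3 CPM in KKO, against 73.1, 71.7 and 66.9 CPM in WT. The genotypes overlapped at both times. The 95% interval of the log2 fold change ran from -0.17 to 0.08 at 48 h and from -0.12 to 0.12 at 24 h.

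Irf5 (chr6:29526625-29541871, plus strand), which acts below toll-like receptors and MyD88, differed between genotypes in opposite directions at the 2 times. At 48 h it had 21.1, 25.0 and 24.7 CPM in KKO, against 28.6, 29.7 and 29.5 CPM in WT. At 24 h it had 10.8, 10.1 and 10.98 CPM in KKO, against 8.04, 7.46 and 7.47 CPM in WT. The libraries of the genotypes did not overlap at either time, with KKO below WT at 48 h and above it at 24 h. The log2 fold change was -0.31 at 48 h (SE 0.08; adjusted p = 0.0119) and 0.48 at 24 h (SE 0.09; adjusted p = 0.00693). In the GENCODE M21 annotation 411 of its 2905 exon bases are shared with Tnpo3 on the opposite strand, which averaged 161.8 CPM in KKO and 169.1 CPM in WT at 48 h (log2 fold change -0.06, adjusted p = 0.443) and 212.6 CPM in KKO and 217.1 CPM in WT at 24 h (-0.03, adjusted p = 0.963). Reads from such bases cannot be told apart where strand was not used, and 5 further members share fewer bases with a neighbour: Irf1 135 with Gm17334, Irf9 123 with Rnf31, Irf3 88 with Bcl2l12, Stat3 72 with Stat5a and Irf7 45 with Phrf1. At 48 h Stat5a was called higher in KKO (0.19, adjusted p = 0.0486), as Stat3 was. Rnf31, on the same strand as Irf9, was called lower (-0.15, adjusted p = 0.0332), as Irf9 was. Bcl2l12 (-0.04) and Phrf1 (-0.14) were not called. The part of shared bases in these results was not tested.

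Irf8 (chr8:120736358-120756694, plus strand) had 589.6, 646.3 and 531.6 CPM in KKO at 48 h, against 681.0, 735.8 and 766.9 CPM in WT. Its 24 h levels were 575.4, 578.5 and 561.3 CPM in KKO, against 470.0, 479.0 and 504.3 CPM in WT. As for Irf5, KKO lay below WT at 48 h and above it at 24 h without overlap. Only the difference at 48 h passed the test (log2 fold change -0.31, SE 0.07; adjusted p = 0.00694); at 24 h the log2 fold change was 0.24 (SE 0.07; adjusted p = 0.11).

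B cells express Irf5 and Irf8, and their markers differed between genotypes. The 9 listed B cell markers in the file summed to 46.7 to 76.3 CPM in KKO and 25.2 to 35.0 CPM in WT at 48 h, and to 50.9 to 70.3 CPM in KKO and 26.7 to 32.8 CPM in WT at 24 h; none was at 0 in a group. Of the 9, 7 rose and 2 were not called at 48 h, where 12.4% of all tested genes rose. At 24 h 4 rose and 5 were not called, where 1.89% of all tested genes rose. Without the 2 mixed libraries, 5 rose at 48 h and the 4 calls at 24 h were lost, although the median log2 fold change of the 9 at 24 h was 1.12 there and 1.09 with all libraries. The sums of these markers were thus higher in KKO at both times. Irf5 and Irf8 were lower in KKO at 48 h; at 24 h Irf5 was higher in KKO and Irf8 was not called. The part of such cells in either gene's level was not tested. Macrophage and monocyte markers, 9 in all, summed to 4.41 to 8.26 CPM in KKO and 2.56 to 4.08 CPM in WT at 48 h, of which Cd68 made up 6.28 and 2.85 CPM and the defining Csf1r at most 1 count in a group. At 24 h they summed to 3.18 to 4.27 CPM in KKO and 2.57 to 3.47 CPM in WT. Conventional dendritic cell markers, 6 in all, summed to 4.38 to 6.20 CPM in KKO and 4.22 to 5.61 CPM in WT at 48 h, and to 2.77 to 3.41 CPM in KKO and 1.85 to 2.72 CPM in WT at 24 h, with Clec9a and Cd209a at 0 in every group. Among them Flt3 was called higher in KKO at 48 h (1.70 CPM in KKO and 0.441 CPM in WT; 1.91, adjusted p = 0.00581), and Zbtb46 averaged 3.21 CPM in KKO and 4.30 CPM in WT and was not called (-0.42, adjusted p = 0.218).

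Stat3 (chr11:100885098-100939540, minus strand) was the only one of the 9 called higher in KKO at 48 h. It had 650.2, 541.6 and 604.1 CPM in KKO at 48 h, against 487.3, 472.9 and 520.1 CPM in WT. The 24 h libraries gave 305.8, 258.9 and 305.0 CPM in KKO, against 273.3, 267.5 and 278.4 CPM in WT. The genotypes were apart at 48 h and overlapped at 24 h. The log2 fold change was 0.28 at 48 h (SE 0.08; adjusted p = 0.0184), which is 1.21-fold higher in KKO, and 0.09 at 24 h (adjusted p = 0.839). The call at 48 h was the least firm of the 7: it held in 8 of the 12 fits that left out a library. It was lost without KKO replicate 1 (0.22, adjusted p = 0.098), KKO replicate 3 (0.27, adjusted p = 0.0625), WT replicate 1 (0.27, adjusted p = 0.0515) or WT replicate 2 (0.24, adjusted p = 0.0707), all at 48 h.

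Without the 2 mixed libraries, 5 of the 7 calls at 48 h were kept, where 10.4% of all tested genes were called at 48 h and 0.799% at 24 h. Irf7 had a log2 fold change of -2.36 (adjusted p = 0.000209), Irf1 -0.64 (adjusted p = 0.00315), Stat2 -0.56 (adjusted p = 0.00774), Irf9 -0.52 (adjusted p = 0.00142) and Irf5 -0.34 (adjusted p = 0.0383). Irf8 (-0.24, adjusted p = 0.0593) and Stat3 (0.27, adjusted p = 0.0762) were not called, nor was Irf5 at 24 h (0.46, adjusted p = 0.0585). With only the 6 libraries of 48 h in the fit, Irf5, Irf8 and Stat3 likewise missed the threshold (adjusted p = 0.0511, 0.0548 and 0.057). Irf5 at 48 h also missed it without KKO replicate 1 (-0.23, adjusted p = 0.0818).

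**Figure D2:**
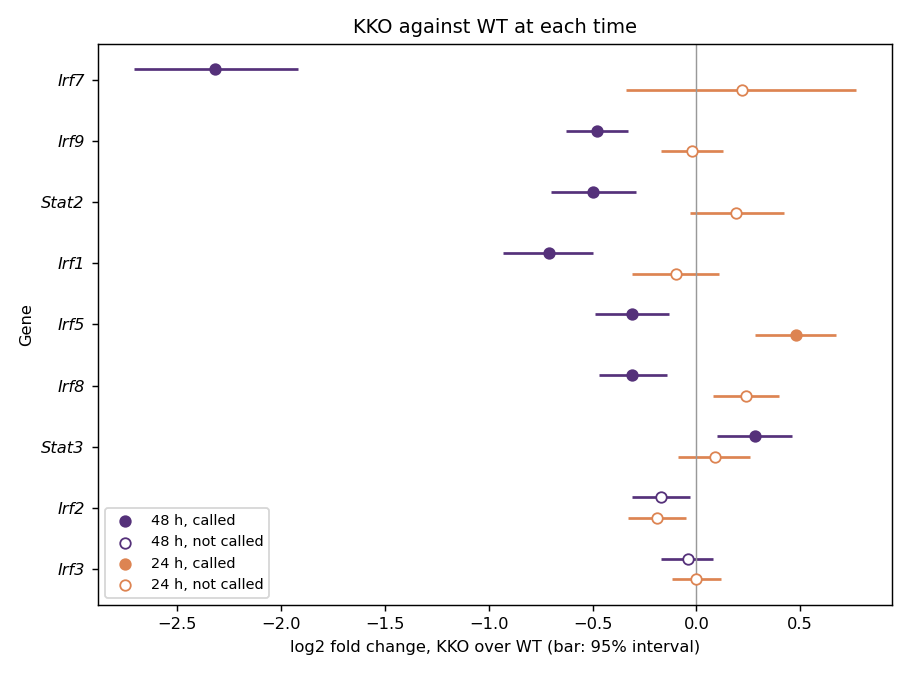
Log2 fold change of KKO over WT (horizontal axis) for each gene at 48 h (dark) and 24 h (orange); bars are 95% intervals, and filled points passed the adjusted p of 0.05. At 48 h the values ran from -2.32 for Irf7 to 0.28 for Stat3, and at 24 h only Irf5 (0.48) was called.

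The genotype effect was then compared between times by an interaction term. It was called for 6 of the 9 genes, all with a lower KKO effect at 48 h than at 24 h, where 4.18% of all tested genes were called and 2.72% in this direction. The difference of the log2 fold changes (48 h minus 24 h) was -2.53 for Irf7 (SE 0.30; adjusted p = 0.000813), the largest of the 9. For Irf5, whose sign changed between the times, it was -0.79 (SE 0.12; adjusted p = 0.00283). Stat2 had -0.69 (adjusted p = 0.014), Irf1 -0.61 (adjusted p = 0.0199), Irf8 -0.54 (adjusted p = 0.0101) and Irf9 -0.46 (adjusted p = 0.0148). Stat3 (0.19, adjusted p = 0.308), Irf3 (-0.04, adjusted p = 0.766) and Irf2 (0.01, adjusted p = 0.939) were not called. The median of the 9 was -0.54, against -0.01 over all genes. Irf7 and Irf5 kept this call without the 2 mixed libraries (-2.48, adjusted p = 0.0218 and -0.81, adjusted p = 0.0333), and the other 4 did not. Irf1 was called in only 3 of the 12 fits that left out a library, with adjusted p-values of 2.99e-05 to 0.0762, and Stat2 and Irf9 missed the threshold without WT replicate 2 at 48 h (both adjusted p = 0.0508).

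Over the day between the sampling times most members moved, as did most genes: 67.8% of tested genes were called in KKO and 60.8% in WT. In KKO, 5 of the 9 rose and 2 fell (34.4% and 33.4% of all tested genes), with a median log2 fold change of 0.44, against 0 over all genes. In WT, 6 rose and 1 fell (31% and 29.7% of all tested genes), with a median of 0.85, against 0. Irf7 was 3.73-fold higher at 48 h than at 24 h in KKO (log2 fold change 1.90, SE 0.21; adjusted p = 1.97e-06) and 21.5-fold higher in WT (4.43, SE 0.20; adjusted p = 5.2e-10). Stat2 was 3.48-fold higher in KKO and 5.62-fold in WT, and Irf5 2.21-fold in KKO and 3.82-fold in WT. Irf9 was 1.35-fold higher in KKO and 1.87-fold in WT. These 4 genes thus rose in both genotypes, and the interaction above, which also tests the difference of these time effects, was called for each.

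Stat3 rose with time in both genotypes, 2.07-fold in KKO and 1.81-fold in WT, and Irf3 fell in both, by 0.45 on the log2 scale in KKO and by 0.41 in WT. Irf8 rose 1.5-fold in WT (log2 fold change 0.59, adjusted p = 5.1e-06), while in KKO its log2 fold change was 0.04 (95% interval -0.12 to 0.20; adjusted p = 0.603). Irf1 did the reverse: it fell in KKO by 0.69 on the log2 scale (adjusted p = 1.07e-05), and in WT its log2 fold change was -0.08 (95% interval -0.29 to 0.13; adjusted p = 0.467). Irf2 was not called in KKO (0.07) or in WT (0.05). All 14 called time effects were kept in each of the 12 fits that left out a library.

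**Figure D3:**
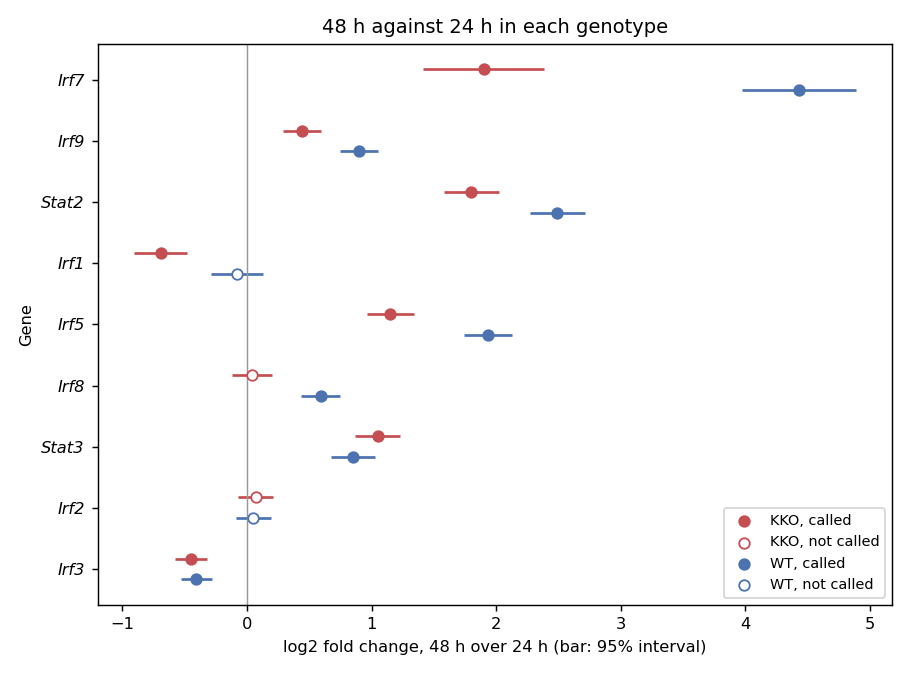
Log2 fold change of 48 h over 24 h (horizontal axis) for each gene in KKO (red) and WT (blue); bars are 95% intervals, and filled points passed the adjusted p of 0.05. Irf7 rose by 1.90 in KKO and 4.43 in WT, and Irf1 fell by 0.69 in KKO.

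Levels of the genes were ordered as CPM per kilobase, over all bases that any annotated exon covers (GENCODE M21). For Irf7 these 3776 bases span the whole gene from its first to its last base. The order, and the place of Irf7 in it, thus depend on the length used. At 48 h in KKO the mean levels were 83.5 for Irf8, 62.8 for Stat3, 30.0 for Irf1, 15.0 for Irf3, 13.9 for Stat2, 8.12 for Irf5, 6.85 for Irf9, 6.72 for Irf2 and 1.72 for Irf7. Of these neighbours, Irf3 and Stat2 overlapped between libraries, as did Irf9 and Irf2. At 48 h in WT the levels were 103 for Irf8, 51.8 for Stat3, 49.3 for Irf1, 19.6 for Stat2, 15.5 for Irf3, 10.1 for Irf5, 9.56 for Irf9, 8.54 for Irf7 and 7.57 for Irf2. In WT Stat3 and Irf1 overlapped, and so did each neighbouring pair from Irf5 down to Irf2. By these lengths Irf7 was the lowest of the 9 in KKO, apart from the rest, and within the range of Irf5, Irf9 and Irf2 in WT.

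At 24 h the order was the same in both genotypes and no neighbours overlapped. In KKO the levels were 81.0 for Irf8, 48.5 for Irf1, 30.4 for Stat3, 20.5 for Irf3, 6.41 for Irf2, 5.06 for Irf9, 3.99 for Stat2, 3.67 for Irf5 and 0.457 for Irf7. In WT they were 68.7 for Irf8, 52.1 for Irf1, 28.7 for Stat3, 20.5 for Irf3, 7.30 for Irf2, 5.13 for Irf9, 3.5 for Stat2, 2.63 for Irf5 and 0.397 for Irf7. Irf8 was the highest and Irf7 the lowest at that time.

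Across the 12 libraries, which share the group differences described above, Irf7 and Irf9 had a Pearson correlation of 0.99 on log2 CPM and Stat2 and Irf5 of 0.98. Irf3 ran against Stat3 (-0.97) and Stat2 (-0.95). Irf1 followed none of the others above 0.63, the value with Irf3. Likeness was searched among tested genes averaging 2 CPM or more. Those closest to Irf7 were Irf9 (0.993), Trim30d (0.992) and Trim30a (0.99), and those closest to Irf9 were Irf7 (0.993), Trim30d (0.991) and Trim12c (0.99). Closest to Stat2 were Cblb (0.998), Oas3 (0.994) and Trafd1 (0.994), and to Irf5 Trafd1 (0.992), Bub1 (0.991) and Ube2c (0.991). Closest to Irf1 were Fam26f (0.994), Ifi47 (0.985) and Fut8 (0.983), to Irf8 Ifitm3 (0.945), Lgals3bp (0.937) and Mx1 (0.927), and to Stat3 Fosl2 (0.998), Klf13 (0.998) and Hk1 (0.997). Irf3 was closest to Hdac10 (0.99), Ttc4 (0.99) and Cpsf1 (0.987), and Irf2 to Zxdb (0.895), Stk24 (0.88) and Nelfcd (0.867). Irf2 had the lowest of these values.

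The genes around the regulators were described from lists by role, chosen with earlier results of these data known. Counts in each list are to be read beside the share of all tested genes called. That share was 24.3% at 48 h (11.9% lower and 12.4% higher in KKO), 2.33% at 24 h and 4.18% for the interaction. Without the 2 mixed libraries it was 10.4%, 0.799% and 0.403%. The list held 9 type I and III interferon genes, all of them in the file, and none passed the filter. Genes of these families outside the list were not summed. Their summed counts at 48 h were 2, 3 and 3 in the KKO libraries, against 10, 22 and 24 in the WT libraries. That is 8 counts in KKO (exact 95% Poisson interval 3.45 to 15.8) and 56 in WT (42.3 to 72.7), or 0.134 and 0.909 counts per M of library total. The KKO libraries all lay below the WT libraries, on counts too low for the fit, and the intervals cover counting error only. At 24 h there was no count in either genotype, which allows up to 0.0396 counts per M in KKO and 0.034 in WT, taking 3 counts as the limit. Ifnb1 had 0 counts in KKO and 9 in WT at 48 h. Several of these genes are near-identical copies among which reads are shared, so the sum is firmer than its parts. Any reads assigned to copies outside the list are missing from it. Ifng averaged 71.2 CPM in KKO and 70.9 CPM in WT at 48 h (log2 fold change 0.00, adjusted p = 0.995), and 52.0 CPM in KKO and 29.2 CPM in WT at 24 h (0.84, adjusted p = 0.416).

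Of 18 tested genes of nucleic acid sensing, which lie upstream of IRF3, IRF5 and IRF7, 1 rose, 6 fell and 11 were not called at 48 h, with a median log2 fold change of -0.10. The cytosolic RNA sensor Ifih1 averaged 22.02 CPM in KKO and 61.0 CPM in WT (-1.47, adjusted p = 6.78e-06), the endosomal RNA receptor Tlr7 1.63 and 4.69 CPM (-1.54, adjusted p = 0.000663), and the nucleic acid sensor Zbp1 44.9 and 94.6 CPM (-1.08, adjusted p = 0.000129). The riser was Ticam1, the adaptor of TLR3, at 36.5 CPM in KKO and 26.3 CPM in WT (0.48, adjusted p = 0.000362). Of 9 tested interferon receptor and Janus kinase genes, 4 rose, 1 fell and 4 were not called, with a median of 0.09. Ifnar1, a chain of the type I interferon receptor, averaged 93.2 CPM in KKO and 113.4 CPM in WT (-0.28, adjusted p = 0.00432). Both chains of the interferon-gamma receptor were higher in KKO, Ifngr1 at 0.39 (adjusted p = 0.0403) and Ifngr2 at 0.33 (adjusted p = 0.0042). The libraries of the genotypes overlapped for Ifngr1 and not for Ifngr2. These counts became 1 receptor or kinase gene up and 1 down, and 1 sensing gene up and 4 down, without the 2 mixed libraries. At most 1 of the 2 interferon-gamma receptor chains thus kept its call there. At 24 h no gene of either list was called by edgeR. At an unadjusted p under 0.05 there were 0 sensing genes and 3 receptor or kinase genes, and DESeq2 called 0 and 1.

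Of the 23 genes listed as interferon-stimulated targets of ISGF3, 21 fell and 2 were not called at 48 h, with a median log2 fold change of -1.09. The largest falls were Mx1 (1.12 CPM in KKO and 11.3 CPM in WT; -3.35, adjusted p = 7.98e-05), Ifit3 (-2.98, adjusted p = 0.0011), Rtp4 (-2.90, adjusted p = 0.000187) and Ifi44 (-2.89, adjusted p = 7.94e-05). The 2 not called, named after their values were seen, were Oas1a (-0.85, adjusted p = 0.0501) and Samhd1 (0.22, adjusted p = 0.116). At 24 h none of the 23 was called by edgeR, 2 had an unadjusted p under 0.05, and DESeq2 called 1 and limma-voom 0. The interaction was called for 17 of the 23, against 4.18% of all tested genes, all with the lower effect at 48 h; without the 2 mixed libraries it was called for 5, against 0.403% of all genes. With time, 15 rose and 2 fell in KKO (median 0.88), against 34.4% and 33.4% of all tested genes. In WT 22 rose and none fell (median 2.41), against 31% and 29.7% of all tested genes. Most of the targets thus shared the directions of Stat2, Irf9 and Irf7, up with time in both genotypes and lower in KKO at 48 h. In the fit without the 2 mixed libraries, 19 of the 23 fell at 48 h.

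Of 14 listed targets of IRF1, 8 fell, none rose and 6 were not called at 48 h, with a median log2 fold change of -0.34, and the same counts were found without the 2 libraries. They were led by the chemokine gene Cxcl10 (1.16 CPM in KKO and 3.83 CPM in WT; -1.73, adjusted p = 0.00173), the peptide-loading gene Tapbp (154.0 and 297.3 CPM; -0.95, adjusted p = 4e-05), Nlrc5, the activator of MHC class I genes (71.7 and 132.2 CPM; -0.88, adjusted p = 0.000113), and the GTPase gene Gbp2 (379.0 and 612.5 CPM; -0.69, adjusted p = 3.16e-05). At 24 h 1 of the 14 rose, Casp1 (0.94, adjusted p = 0.0367). The interaction was called for 7 of the 14, all with the lower effect at 48 h, against 4.18% of all tested genes. The call of Casp1 and the 7 interaction calls were lost without the 2 mixed libraries.

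On the STAT3 side the direction was the other way. Of 10 tested cytokine and receptor genes upstream of STAT3, 7 rose, 1 fell and 2 were not called at 48 h, with a median log2 fold change of 0.65. Il10 averaged 4.51 CPM in KKO and 0.416 CPM in WT (3.46, adjusted p = 0.000227), Il21 34.4 and 6.66 CPM (2.37, adjusted p = 0.0229), and Il22 2.25 and 0.498 CPM (2.20, adjusted p = 0.00788). The receptor gene Il6ra averaged 28.0 CPM in KKO and 16.9 CPM in WT (0.73, adjusted p = 0.00495). The 1 that fell, named after its values were seen, was Il6st, the shared receptor chain gp130 (-0.20, adjusted p = 0.0219). At 24 h 3 rose and 1 fell. Leaving out the 2 mixed libraries, 4 rose and 1 fell at 48 h, and the 3 rises at 24 h were no longer called.

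Of 14 listed STAT3 targets in T cells, which share Il10, Il21 and Socs3 with the other lists, 10 rose, 2 fell and 2 were not called at 48 h, with a median of 0.70. Besides Il10 and Il21, a large rise was that of Maf, a factor of interleukin-10 and interleukin-21 production (6.002 CPM in KKO and 0.866 CPM in WT; 2.81, adjusted p = 0.00179). The 2 that fell, named after their values were seen, were Bcl6 (-0.76, adjusted p = 0.00561) and Myc (-0.45, adjusted p = 0.00232). At 24 h 1 of the 14 rose, Pim1 (0.49, adjusted p = 0.000542). At 48 h, 6 rose and 2 fell without the 2 mixed libraries.

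Among 13 inhibitors of JAK-STAT signalling, 4 rose, 2 fell and 7 were not called at 48 h, with a median of 0.10. Socs3, induced by and acting on STAT3 signals, averaged 251.4 CPM in KKO and 89.0 CPM in WT (1.50, adjusted p = 0.00427), and Usp18, the interferon-induced brake on the type I receptor, 22.9 and 46.5 CPM (-1.02, adjusted p = 0.0017). Socs1 averaged 180.5 CPM in KKO and 133.3 CPM in WT (0.44, adjusted p = 0.000871), and the phosphatase gene Ptpn2 164.1 and 123.7 CPM (0.41, adjusted p = 0.00329). At 24 h 2 rose, Cish (0.63, adjusted p = 0.00036) and Socs1 (0.57, adjusted p = 0.000605). In the fit without the 2 mixed libraries, 3 rose and 1 fell at 48 h, and 2 rose at 24 h.

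**Figure D4:**
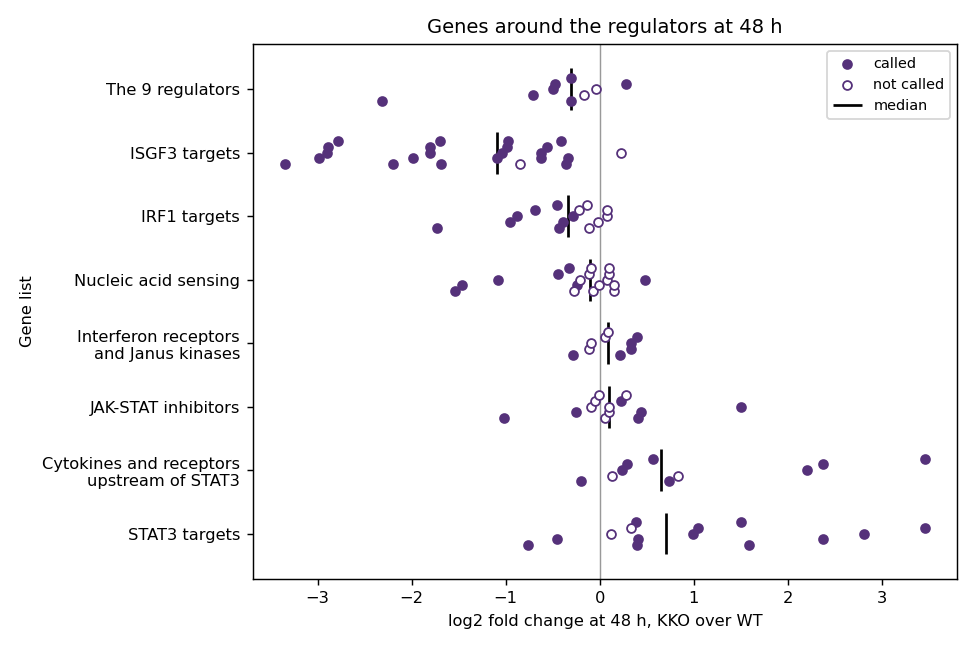
Log2 fold change of KKO over WT at 48 h (horizontal axis) for the 9 regulators and for the tested genes of 7 lists around them; each point is a gene, filled where it passed the adjusted p of 0.05, and the black bar is the list's median. Medians ran from -1.09 for ISGF3 targets to 0.70 for STAT3 targets.

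Of 9 further IRF, IRF2-binding and STAT family genes on the list, 5 rose, 2 fell and 2 were not called at 48 h, with a median of 0.19. Stat4, which carries IL-12 signals, averaged 140.8 CPM in KKO and 229.8 CPM in WT (-0.71, adjusted p = 0.000209), the same log2 fold change as Irf1. Irf2bpl averaged 86.4 CPM in KKO and 51.9 CPM in WT (0.74, adjusted p = 0.000121), and the repressor gene Irf2bp1 33.6 and 42.7 CPM (-0.35, adjusted p = 0.00304). These counts became 2 and 2 without the 2 mixed libraries.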

How the data were processed

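RNA from 12 samples of mouse CD4+ T cells was sequenced as paired-end reads, per the labels' protocols. The authors deposited RSEM expected counts per gene, not normalized; the tools (FastQC, RSEM) and the mouse build mm10 come from the submitters' processing notes, while the design text speaks of a human reference. The RSEM version, aligner and annotation are not given in the sources used here. RSEM divides a read that matches several genes between them, and 10.8 to 12.7% of a library's values were not whole; strand use is not stated. Library totals were 17.8 to 32.6 M (mega) counts. The file has 27 symbols turned into dates, 1 row with no gene name (at most 1.1e-05% of a library), left out, and 6 columns that no sample label describes, which were not used.

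Expected counts were rounded and tested in R 4.3.3 with edgeR 4.0.16: filterByExpr (13196 genes), TMM scaling, robust quasi-likelihood F tests with all 12 libraries in 1 fit (4 group means, 8 residual degrees of freedom), and 2-sided p-values with Benjamini-Hochberg adjustment over all tested genes in each of 5 comparisons. The fit was tested on simulated data, in which a small part of the 12988 tested genes was changed and the rest had equal group means. At 48 h it recovered 75% of 2-fold changes and 6% of 1.2-fold changes, and 2.4% of its calls were false. At 24 h it recovered 66% of 2-fold changes and 14% of 1.2-fold changes, and 1.2% of its calls were false. In the real data 24.3% of tested genes were called at 48 h. The adjusted p depends on that share, so the simulated rates may not carry over to the 48 h test. A gene that was not called may therefore still have a small change. CPM used TMM-scaled library sizes, and correlations log2 CPM with a prior count of 2. Also run were other tools (DESeq2 1.42.0 and voom of limma 3.58.1), other scalings (upper-quartile and RLE), other low-count filters (none, or 1 CPM in 6 libraries), only the groups compared, replicate blocks, stricter thresholds, the male share as a covariate, and leaving out libraries. List counts without doubted libraries were added after seeing the data.

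The members and lists were chosen with earlier results of these data known. All 9 members are named; from each list up to 4 called genes with the largest change, and for each member the 3 genes most correlated with it, leaving out predicted and unnamed genes. Some genes that this rule names are not reported here. The deviations of same-numbered libraries across time had correlations of 0.126, 0.103 and 0.343 in WT and 0.029, 0.085 and 0.041 in KKO. Those of unlike-numbered libraries ran from -0.237 to 0.151 in WT and from -0.171 to 0.17 in KKO. Some unlike-numbered pairs thus exceeded same-numbered pairs in both genotypes, and no label explains the numbers. In KKO the library with both Xist and Y-linked transcripts was number 1 at 24 h and number 3 at 48 h. Number 3 at 24 h and number 1 at 48 h had Y-linked transcripts and almost no Xist. Equal numbers thus need not mark an equal source in KKO. Positions and exon lengths are from GENCODE M21, promoters from RefSeq.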

Additional observations from a re-analysis of the deposited data

Results flagged for a closer look

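The effect of Keap1 loss differed between the times, by the interaction test, for 6 of the 9 genes, against 4.18% of all tested genes. The difference of the log2 fold changes (KKO over WT at 48 h minus that at 24 h) was -2.53 for Irf7, -0.79 for Irf5, -0.69 for Stat2, -0.61 for Irf1, -0.54 for Irf8 and -0.46 for Irf9. For Irf5 and Irf8 every KKO library lay below every WT library at 48 h and above every WT library at 24 h. At 24 h Irf8 was not called in the main fit (adjusted p = 0.11). It was called there with DESeq2, with only the libraries compared, and without KKO replicate 2 at 48 h. The separation of 3 libraries from 3 is a description, and its share among all tested genes is not given. Without the 2 mixed libraries (Xist beside Y-linked transcripts), the adjusted p stayed under 0.05 for Irf7 (0.0218) and Irf5 (0.0333), and was 0.0604 for Irf9, 0.0703 for Stat2, 0.0764 for Irf8 and 0.131 for Irf1. The causes of the difference between times were not tested.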

How the results depend on the processing

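No member's called change turned its sign under any of the alternatives run, and 11 sign changes were of values called in neither fit. In this paragraph the share of all tested genes called in the same fit stands in brackets. At 24 h the count of members called was 1 (2.33%); it was 2 with DESeq2 (3.70%) or with only the libraries compared (4.15%), 0 with a 2-fold minimum (0.538%) or without the 2 mixed libraries (0.799%), and 1 to 2 when each library was left out (Irf8 was called, at 0.24 and adjusted p = 0.0178, without KKO replicate 2 at 48 h). At 48 h the count was 7 (24.3%); it was 4 with only the libraries compared (12.1%), 1 with a 2-fold minimum (4.25%), and 5 to 8 when each library was left out. With a 2-fold minimum 4 of the 7 time effects in KKO (20.3%) and 3 of the 7 in WT (15.4%) were left, and leaving out a library kept 7 in both. For the interaction the count was 6 (4.18%); it was 2 at an adjusted p under 0.01 (0.644%), 1 with a 2-fold minimum (1.12%), 2 without the 2 mixed libraries (0.403%), and 3 to 6 when each library was left out. With replicate number as a block the counts were 1 at 24 h (2.44%), 7 at 48 h (21.9%) and 6 for the interaction (4.83%). Over time they were 7 in KKO (66.5%) and 7 in WT (59.4%), so the block changed no count of members. As the KKO numbers did not match in Xist and Y-linked transcripts between times, the block cannot test pairing there. With the block within genotype these time counts were 7 (67.1%) and 7 (60.5%), and the interaction count was 6 (7.06%). The male share as a covariate gave 1 at 24 h (3.19%), 7 at 48 h (21.3%) and 6 for the interaction (10.6%). Over time it gave 7 in KKO (69%) and 7 in WT (62.9%). The interaction count of 6 thus stood against a larger share of all genes than in the main fit (4.18%). The share of all tested genes called at 48 h ran from 10.4 to 39.6% when each library was left out, and that of the interaction from 1.06 to 23.8%, so the calls near the threshold depend on the set of libraries. Depth limits Irf7 at 24 h, with 29 to 54 counts per library, and the listed type I and III interferon genes, which were too low to test.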
